A study of Mus musculus with 26 samples.

Results

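Chromatin regions that were listed as accessible in cultured mouse pre-B cells without interleukin 7 (IL-7), and in no other culture medium examined, were described. A region belonged to this set when both ATAC-seq peak lists without IL-7 held a peak there, while neither list with IL-7 and neither list without IL-7 with CXCL12 did. The rule was applied to chromosomes 1 to 9 and 13 to 19 outside 67 to 71 Mb of chromosome 6, after peaks of the 6 cultured lists that shared at least 1 bp had been merged. It gave 532 of 35235 merged regions (1.51%). They are called the without-IL-7-only regions here. The regions were thus chosen by the peak calls of the cultured libraries, so their number and their scores in the cultured lists are given as a description, with no test.

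ATAC-seq marks open chromatin by the sites at which a transposase can insert adapters. The 8 ATAC-seq libraries came from mouse and formed 4 groups of 2. The cultures, all labelled as pre-B cells with no deletion named, had received IL-7, had lost it, or had lost it and received CXCL12. The other group was sorted CXCR4-/- small pre-B cells, which did not enter the rule. The sources used here do not give strain, age, culture time or factor doses, nor whether the 2 replicates of a group came from separate animals or cultures.

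IL-7 signals through JAK kinases and STAT5 and drives the growth of B cell progenitors. Loss of this signal lets pre-B cells leave the cycle and begin to rearrange their light chain genes. CXCL12 is a chemokine made by marrow stromal cells, and CXCR4 is its receptor. Distal accessible regions often hold enhancers, short elements bound by transcription factors, and their openness commonly changes between stages of B cell development.

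The number of without-IL-7-only regions depended on how long the lists were. On the chromosomes kept, the lists without IL-7 held 30366 and 25029 peaks, those with IL-7 26634 and 22252, and those without IL-7 with CXCL12 25415 and 21407. The lists without IL-7 were thus the longest for each replicate number. As deposited, 532 regions were found in both lists without IL-7 only, against 283 in both lists with IL-7 only and 50 in both lists with CXCL12 only. When each list was cut to its 21407 highest-scoring peaks, the counts were 126 without IL-7, 426 with IL-7 and 162 with CXCL12. The order of the media therefore turned, and the medium without IL-7 went from the highest count to the lowest. Only 37 of the 532 regions (6.95%) met the rule in both settings, and they made up 29.4% of the 126. The cut left unlike lowest scores in replicates 1 and 2. They were 9.17 and 6.74 without IL-7, 7.15 and 5.44 with IL-7, and 6.65 and 5.00 with CXCL12. With a score of at least 10 in every list, the order of the deposited lists stayed. The counts were then 321 without IL-7, 178 with IL-7 and 19 with CXCL12. The order thus depended on how the lists were cut. The sources used here do not give the sequencing depth of the ATAC-seq libraries, so longer lists from more open chromatin and longer lists from more reads cannot be told apart. For that reason the set is named by its rule and not as regions opened by IL-7 loss.

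**Figure D1:**
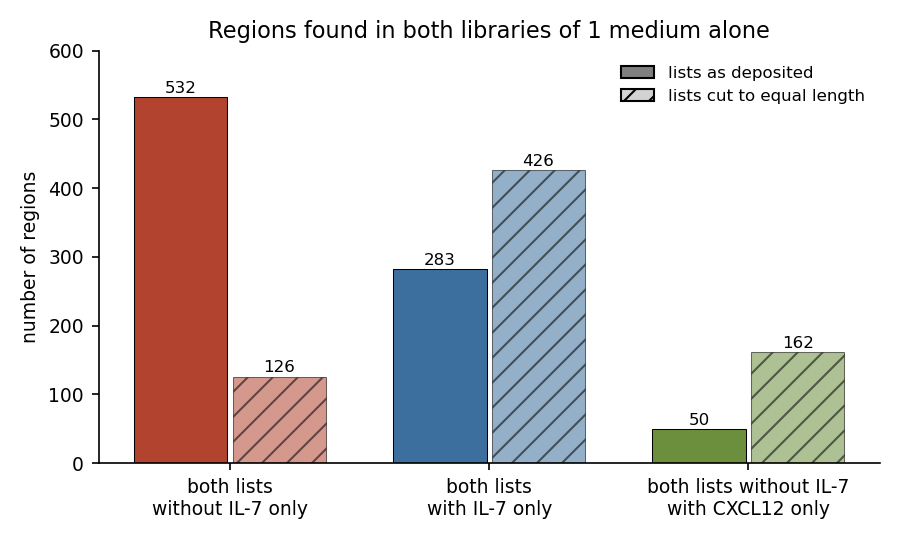
Number of regions (y axis) found in both libraries of 1 medium and in neither library of the other media, for lists as deposited (plain bars) and lists cut to equal length (hatched bars). The count without IL-7 fell from 532 to 126, while that with IL-7 went from 283 to 426 and that with CXCL12 from 50 to 162.

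The lists also show how close the rule came to its neighbours. A peak in both lists without IL-7 was present at 22912 regions, of which 17225 (75.2%) had a peak in all 6 cultured lists. Neither list with IL-7 held a peak at 1505 of them (6.57%). These 1505 comprised the 532 without a peak in either list with CXCL12, 650 with a peak in 1 of them and 323 with a peak in both. A further 492 regions were in 1 list with IL-7 and in neither with CXCL12. Taken singly, the lists of replicate 1 gave 4026 regions with a peak without IL-7 and none in the other 2 media, and those of replicate 2 gave 3473. The 532 regions were 13.2% and 15.3% of these, so most regions listed without IL-7 alone in one set of libraries were not in the other.

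The without-IL-7-only regions had low scores. The score is the authors' own, on the −log10 scale of the peak caller's p or q value, and the lists held none under 5. In replicate 1 without IL-7 it ran from 5.00 through a median of 6.92 to 23.9, and in replicate 2 from 5.01 through 6.06 to 13.7. The median in replicate 1 was above that of 17.1% of the peaks in its list, and the median in replicate 2 above 8.59%. For the 323 regions without IL-7 that were also in both lists with CXCL12, the medians were 9.05 and 8.16. For the regions in all 6 lists they were 35.2 and 30.0. The lower of a region's 2 scores was under 6 in 312 of the 532 (58.6%), under 7 in 451 (84.8%) and at least 10 in 4. Of all regions with a peak in both lists without IL-7, 17.2% met the rule where the lower score was 5 to 6, 7.92% at 6 to 7, 4.03% at 7 to 8, 1.34% at 8 to 10 and 0.126% at 10 to 15. None of the 12906 regions with a lower score of 15 or more met it. Scores repeated among the regions: the value 5.40 was shared by 95 of them in replicate 2.

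**Figure D2:**
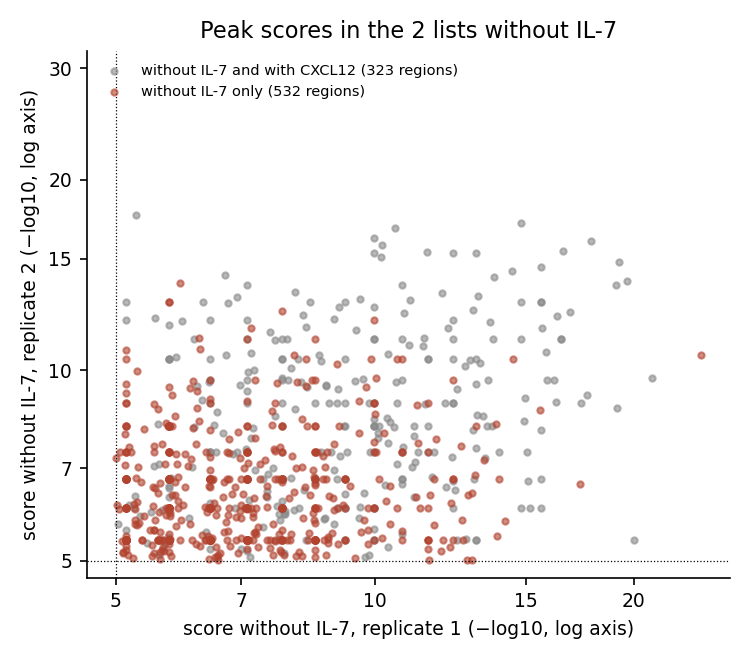
Peak score in replicate 1 (x axis) and replicate 2 (y axis) without IL-7, both −log10 values on log axes, for the 532 without-IL-7-only regions (red) and the 323 regions also in both lists with CXCL12 (grey). Dotted lines mark the lowest deposited score of 5, and most red points lie close to it, with medians of 6.92 and 6.06 against 9.05 and 8.16 for the grey points.

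The values next to the threshold show how narrow the margin was. Just inside the rule, the regions with the lowest scores were chr6:91235394-91235849 (5.00 and 7.28 in replicates 1 and 2), chr3:58494642-58495660 (11.6 and 5.01) and chr19:10656449-10656861 (6.58 and 5.01). Just outside it, chr1:153553178-153553642 scored 6.82 and 7.20 without IL-7 but had a peak of 5.00 in replicate 1 with CXCL12. At chr5:33798271-33798861 the scores without IL-7 were 6.42 and 5.71 and that in replicate 2 with IL-7 was 5.01. At chr2:13714646-13715715 they were 7.11 and 6.74, and replicate 2 with CXCL12 scored 5.01. Here and below, positions are 1-based in mm9, the build named in the submitters' processing notes. No mm9 genome or gene annotation was used here, so genes, exons and sequences at these positions are not analysed.

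Peak numbers in the lists were skipped, as happens when peaks are removed after they have been numbered. The sources used here do not give the reason. In the lists with IL-7 and with CXCL12, 34.3% to 41.4% of the numbers were missing. Numbers rose along each chromosome, so a missing number between the 2 deposited peaks that flank a region leaves room for a removed peak there. No number was missing around 51 and 62 of the 532 regions in the lists with IL-7, and around 41 and 77 in the lists with CXCL12. These are 9.59%, 11.7%, 7.71% and 14.5% of the regions. Of all pairs of neighbouring peaks in these lists, 67.6%, 61.6%, 67.5% and 65.4% had no number missing between them. Each pair counted equally whatever its distance, whereas a region falls more often in a wide gap, which can hold more missing numbers. The 2 sets of shares are therefore not alike, and no conclusion is drawn from their difference. No number was missing in any of the 4 lists around 3 regions, chr13:49841112-49841325, chr14:42049004-42049291 and chr6:114440829-114441037. Each of the 3 lay within 1 kb of a region in all 6 lists and had no peak in either sorted list. Signal too weak to be numbered as a peak would leave no gap, so these 3 are not shown to lack it. For the other 529, a peak removed for any reason from at least 1 of the 4 lists could not be told apart from no peak. These include regions such as chr1:4486461-4486955 that deposited peaks did not flank on both sides, where missing numbers were not counted.

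The sorted cells gave a readout that the rule had not used. Small pre-B cells are the resting stage that follows the dividing large pre-B cells, and these were labelled CXCR4-/-. The RNA-seq libraries with the same label differed from each other: Cxcr4 stood at 37.2 CPM (counts scaled by library size) in replicate 1 and 409 in replicate 2, against 943 and 922 in wild type small pre-B cells. Their 15 myeloid markers summed to 7109 and 1243 CPM, and those of the wild type to 5788 and 5735, whereas the 6 libraries of the cultures held 181 to 834. Whether the ATAC-seq libraries of this label share these features, and their part in the values that follow, was not tested, so each replicate is given on its own. Of the 532 regions, 445 (83.6%, exact 95% binomial interval 80.2% to 86.7%) had a peak in sorted replicate 1 and 415 (78.0%, 74.2% to 81.5%) in replicate 2. Both lists held a peak at 407 (76.5%, 72.7% to 80.04%), replicate 1 alone at 38, replicate 2 alone at 8 and neither at 79. All such intervals cover counting error only, since regions are not replicates of a condition. The share for all 35235 merged regions was 81.1% (80.6% to 81.5%), so the without-IL-7-only regions lay a little below the background. The sorted lists were the longest of all, with 52777 and 45722 peaks on the chromosomes kept.

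Sets of regions with other histories differed from them in the sorted lists. Of the 283 regions found with IL-7 only, 73 (25.8%, 20.8% to 31.3%) had a peak in both sorted lists, and 179 (63.3%) had none in either. Of the 323 regions without IL-7 that were also in both lists with CXCL12, 304 (94.1%, 91.0% to 96.4%) had a peak in both. The share of the without-IL-7-only regions lay between these. As the intervals cover counting error only, a difference beyond the spread between libraries was not tested. Regions in 1 library without IL-7 alone stood lower, at 60.4% of 2853 for replicate 1 and 52.6% of 804 for replicate 2. With lists of equal length the share was 87.3% (80.2% to 92.6%) for the 126 regions without IL-7 only, 36.2% for the 426 with IL-7 only and 97.9% for the 289 without IL-7 that were also with CXCL12. The order of these 3 sets was thus the same in both settings, unlike the order of their counts.

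The shares were also set side by side at matched scores. Among the without-IL-7-only regions, a peak in both sorted lists was found at 73.4% (68.1% to 78.2%) of the 312 with a lower score of 5 to 6 and at 79.1% (71.4% to 85.6%) of the 139 at 6 to 7. It was found at 82.0% (68.6% to 91.4%) of the 50 at 7 to 8 and at 85.2% (66.3% to 95.8%) of the 27 at 8 to 10. All 4 regions with both scores at 10 or more had one, a number too small to give a useful share. The share rose from bin to bin, while the intervals of neighbouring bins overlapped. A trend with the score was not tested. Among the regions with IL-7 only, binned by their scores with IL-7, the share was 34.4% (26.1% to 43.4%) of 125 at 5 to 6, 36.8% of 57 at 6 to 7, 11.6% of 43 at 7 to 8 and 8.57% (1.80% to 23.1%) of 35 at 8 to 10. In each bin the share was higher for the without-IL-7-only regions than for the regions with IL-7 only. Among the regions also with CXCL12 the share was 90.5% (81.5% to 96.1%) of 74 at 5 to 6 and 90.2% (81.7% to 95.7%) of 82 at 6 to 7. It was 98.0% (89.4% to 99.9%) of 50 at 7 to 8 and 95.7% (87.8% to 99.1%) of 69 at 8 to 10. In every bin but the lowest, these intervals overlapped those of the without-IL-7-only regions. Regions in all 6 lists had shares close to those of the without-IL-7-only regions at the same scores. They were 75.5% (69.1% to 81.1%) of 212 at 5 to 6, 83.1% of 360 at 6 to 7, 78.9% of 402 at 7 to 8 and 84.9% (82.6% to 87.1%) of 1009 at 8 to 10, and the intervals of the 2 sets overlapped in each bin.

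**Figure D3:**
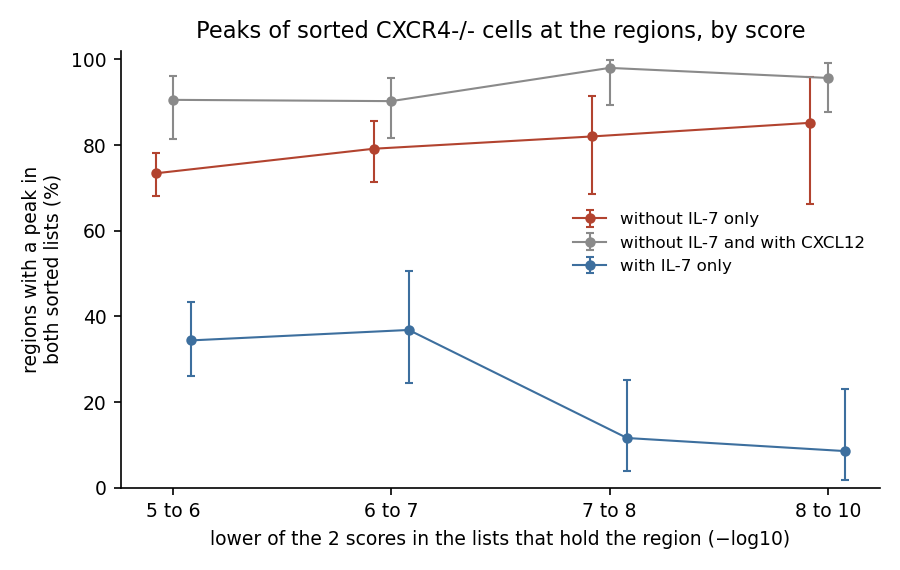
Share of regions with a peak in both lists of sorted CXCR4-/- small pre-B cells (y axis, %) by the lower of the 2 scores in the lists that hold the region (x axis, −log10), with exact 95% binomial intervals as bars. The without-IL-7-only regions (red) run from 73.4% to 85.2%, the regions also with CXCL12 (grey) lie at 90.2% or above, and the regions with IL-7 only (blue) lie at 36.8% or below.

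Where the sorted lists held a peak, its score spanned a wide range. In sorted replicate 1 the 445 peaks at the without-IL-7-only regions ran from 5.01 through a median of 17.6 to 97.0, and in replicate 2 the 415 peaks ran from 5.14 through 14.1 to 82.8. The medians were 38.5 and 30.3 at the regions without IL-7 that were also with CXCL12, and 11.4 and 9.98 at those with IL-7 only. The without-IL-7-only regions thus lay between these sets here too. At the regions with CXCL12 only the medians were 25.2 and 16.0, above those of the without-IL-7-only regions. No comparison with the scores in culture is drawn, since the rule itself keeps regions of low culture score. The highest sorted scores at members were 97.0 and 82.8, at chr3:129828882-129829230, which scored 5.14 and 8.89 without IL-7. At chr16:90342031-90342234 the sorted scores were 62.6 and 60.9 and those without IL-7 were 7.11 and 6.06. At chr5:72616332-72616618 they were 57.5 and 63.3 against 7.80 and 5.40.

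Named by their scores in culture, the 12 regions with the highest lower score were spread over 9 chromosomes. The first was chr15:101071149-101071599, with 23.9 and 10.6 in replicates 1 and 2 without IL-7 and 16.9 and 13.4 in the sorted lists. It was the one whose score in replicate 1 was above 20. Next came 2 regions of chromosome 5, chr5:135047607-135048188 with 14.5 and 10.4, and chr5:77646256-77646717 with 10.8 and 10.4. The sorted lists held both, at 19.9 and 28.2 and at 14.6 and 11.1. The region chr8:130509515-130509979 scored 10.6 and 10.4 in culture and 55.96 and 41.7 in sorted cells. These 4 are the regions with both scores at 10 or more.

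The other 8 of the 12 had a lower score between 8.89 and 9.99. At chr9:94470415-94471030 the scores were 12.3 and 9.65 without IL-7 and 57.6 and 45.0 in sorted cells. At chr19:61191928-61192437 they were 9.99 and 12.0 without IL-7 and 33.5 and 16.9 in sorted cells. At chr9:101592475-101593123 they were 9.89 and 10.4 against 6.82 and 12.2. At chr5:147725905-147726262 they were 9.77 and 9.40 against 23.6 and 13.4, and this region lay 1251 bp from one in all 6 lists. At chr2:179609847-179610350 they were 9.58 and 8.95 against 14.6 and 5.20. A peak in both sorted lists was thus found at 9 of the 12, beside 76.5% of all 532 regions. The exceptions were chr4:152977169-152977660 (10.0 and 9.73) and chr14:74196954-74197221 (9.99 and 8.89), which had none in either sorted list, and a region of chromosome 18 (9.05 and 10.2), which had one in replicate 2 alone. The lower score of chr14:74196954-74197221 was shared by chr16:91081670-91082053 and chr3:126328413-126328838. Both had a peak in both sorted lists and are not among the 12. Of these 12 regions, 11 were among the 37 that met the rule in both settings of list length, the region of chromosome 18 being the exception. The lists of equal length held no score under 9.17 in replicate 1 and 6.74 in replicate 2 without IL-7, so only high scores could stay.

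The regions were narrow, and their peaks overlapped, as the merging requires. After merging, their width ran from 204 bp through a median of 460.0 bp to 1687 bp, and 519 were under 1 kb. The median was 887 bp for regions in all 6 lists and 618 bp for all merged regions. Each list without IL-7 held a single peak at 529 of the 532. The centres of the 2 peaks were a median of 36.5 bp apart and lay within 100 bp at 454 regions (85.3%). The centre of the sorted replicate 1 peak lay within 100 bp of that of replicate 1 without IL-7 at 366 of 445 (82.2%). The widest were chr2:139503060-139504746 (1687 bp), chr6:28781856-28783279 (1424 bp) and chr3:58809866-58811279 (1414 bp). All 3 had a peak in both sorted lists, beside 76.5% of all 532 regions.

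The narrowest regions had the lowest share in the sorted lists. Of the 40 regions under 300 bp wide, 11 (27.5%, exact 95% binomial interval 14.6% to 43.9%) had a peak in both sorted lists and 24 had none in either. The share was 81.0% (71.9% to 88.2%) of 100 regions of 300 to under 400 bp, 79.8% (74.7% to 84.2%) of 292 of 400 to under 600 bp and 82.0% (73.1% to 89.0%) of 100 wider ones. The share of the narrowest class lay below those of the other 3, with intervals that cover counting error only. In that class the centres of the 2 peaks were a median of 10.5 bp apart, against 38.5 bp in the class of 400 to under 600 bp. No peak was narrower than 200 bp, so the class limit itself keeps the centres close, and no conclusion is drawn from this difference. The limits of these classes were chosen after the data were seen. All 3 regions with no missing number in the 4 lists belonged to the narrowest class.

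Most of the regions lay away from shared open chromatin. The nearest region in all 6 lists was a median of 19.7 kb off, within 1 kb for 42 of the 532 (7.89%) and within 10 kb for 180 (33.8%). For 73 it was more than 100 kb away. The median was 14.35 kb for regions without IL-7 that were also with CXCL12 and 17.4 kb for regions with IL-7 only, with 9.91% and 6.01% within 1 kb. The without-IL-7-only regions were rarely close to each other, with 3 neighbouring pairs within 10 kb and 31 within 100 kb.

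In 2 places 3 of the regions lay within 100 kb. One spanned chr2:129400895-129451988, where the scores were 15.6 and 8.65, 7.25 and 5.55, and 7.67 and 8.89 in replicates 1 and 2. The other spanned chr8:48373692-48469348, with 5.60 and 5.40, 5.12 and 7.93, and 7.11 and 8.16. Against a share of 76.5% over all 532 regions, all 6 had a peak in both sorted lists. Their sorted scores were 6.20 to 17.0 in replicate 1 and 5.95 to 15.1 in replicate 2 on chromosome 2. On chromosome 8 they were 14.7 to 39.8 and 10.1 to 29.1. The nearest region in all 6 lists was 148.9 kb from the closest of the 6.

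Every chromosome kept held some of the regions. Their share among the merged regions of a chromosome ran from 0.878% (18 of 2050, exact 95% binomial interval 0.521% to 1.38%) on chromosome 17 to 1.98% (44 of 2219, 1.44% to 2.65%) on chromosome 6. Chromosome 17 was the only 1 of the 16 whose interval did not reach the overall 1.51%. With 16 intervals read at once, 1 that misses is not a result about that chromosome. The largest number, 51, was on chromosome 1. The share with a peak in both sorted lists ran from 59.4% of 32 regions on chromosome 14 to 85.7% of 35 on chromosome 3 and of 21 on chromosome 18.

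**Figure D4:**
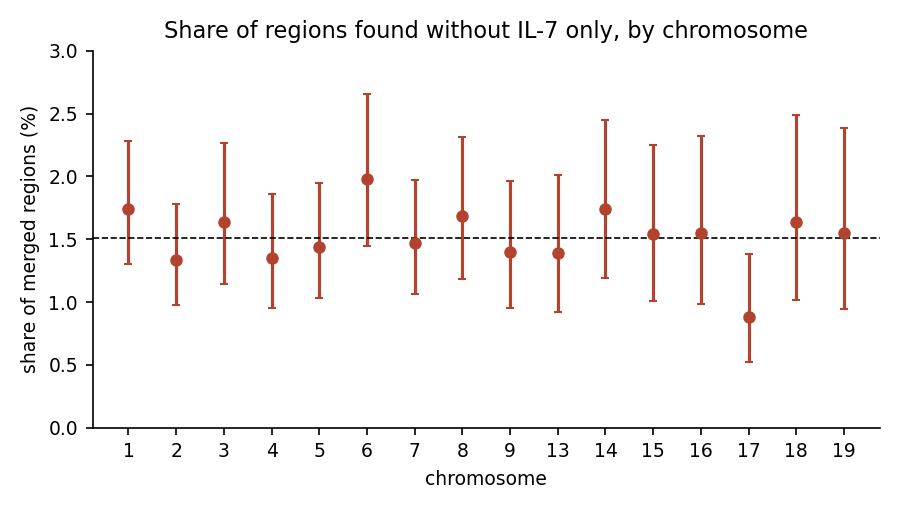
Share of the merged regions of each chromosome (x axis) that were found without IL-7 only (y axis, %), with exact 95% binomial intervals as bars and the overall share of 1.51% as a dashed line. Chromosome 17 (0.878%) lies below the line, and the intervals of the other chromosomes reach it.

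RNA-seq of the same 3 media shows the regulators that the cells expressed, although no region could be tied to a gene. The 6 libraries held 17257914 to 44727809 counts, and all 18 RNA-seq libraries of the series were fitted in 1 model. Besides the 3 media, the model held cultures with IL-7 and CXCL12, and cultures without IL-7 with CXCL12 and an ERK inhibitor. It also held CXCR4-/- cultures without IL-7, with and without CXCL12, and sorted wild type and CXCR4-/- small pre-B cells. All these groups share the estimate of the spread behind each adjusted p. Changes are log2 changes ± SE, the loss of IL-7 first and then the addition of CXCL12 to medium lacking IL-7, with adjusted p from edgeR's quasi-likelihood test. The pre-B markers were expressed in all 6 libraries, with Cd79a, part of the pre-B cell receptor, at 833 to 1133 CPM and the recombinase gene Rag1 at 92.9 to 434. Of these 8 markers, 2 were called higher and 1 lower for IL-7 loss, and 4 higher and 1 lower for CXCL12. Igll1 (-0.19 ± 0.26 and -1.35 ± 0.27) was called lower for CXCL12. Il2ra (-0.33 ± 0.10 and 1.64 ± 0.10) was called lower for IL-7 loss and higher for CXCL12. Over all 14862 genes, 1758 (11.8%) were called for the loss of IL-7, 5.6% higher and 6.23% lower, and 4543 (30.6%) for CXCL12, 17.3% higher and 13.2% lower. Of 89 tested genes of the regulator and chromatin lists, 13 rose and 5 fell with the loss of IL-7, and 20 rose and 17 fell with CXCL12. The median change of these genes was 0.10 and 0.08, beside 0.05 and 0.09 over all genes.

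Of 9 genes of the IL-7 pathway, 1 rose and 3 fell with the loss of IL-7, and 2 rose and 3 fell with CXCL12. Over all genes 5.6% rose and 6.23% fell with the loss of IL-7, and 17.3% rose and 13.2% fell with CXCL12. Cish, a STAT5-induced inhibitor of cytokine signals, stood at 79.0 and 73.6 CPM with IL-7, 30.0 and 28.9 without, and 4.79 and 4.29 with CXCL12. The 3 media did not overlap, and Cish fell in both comparisons (-1.37 ± 0.10, adjusted p = 1.1e-05, and -2.69 ± 0.11, adjusted p = 3.9e-08). Socs2, another such inhibitor, fell in both as well (-0.74 ± 0.15 and -2.15 ± 0.16). Il7r, the receptor, was 97.5 and 91.7, 227 and 236, and 303 and 302 CPM and rose in both (1.29 ± 0.11, adjusted p = 3.6e-05, and 0.39 ± 0.11, adjusted p = 0.021). Its call for CXCL12 was lost whichever of the 4 libraries was left out (adjusted p 0.085 to 0.13), and that of Socs2 for IL-7 loss without replicate 1 with IL-7 or either library without it (0.058 to 0.073). Cxcr4 was at 113 and 112, 169 and 171, and 237 and 226 CPM and passed neither test (0.59 ± 0.65 and 0.44 ± 0.65). In a fit of the 6 libraries of the 3 media it passed both (0.55, edgeR adjusted p = 2.1e-08, and 0.35, adjusted p = 4.6e-07).

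The transcription factors named next were picked from those called in at least 1 comparison, so that they changed follows from the choice. The counts over all 89 tested genes of the lists are given above. Over all genes 5.6% were called higher and 6.23% lower for IL-7 loss, and 17.3% higher and 13.2% lower for CXCL12. Irf4, which acts on light chain enhancers, rose in both (0.73 ± 0.10 and 0.95 ± 0.10), as did Bcl6 (0.73 ± 0.18 and 1.54 ± 0.18), Myb (0.78 ± 0.07 and 0.87 ± 0.07) and Id2 (0.80 ± 0.22 and 0.93 ± 0.22), an inhibitor of E proteins. Of 5 NF-kB genes 2 were higher after IL-7 loss and 3 with CXCL12, Nfkb2 (0.58 ± 0.11 and 1.63 ± 0.11) and Relb (0.96 ± 0.14 and 1.82 ± 0.14) in both. Foxo1 (0.29 ± 0.09 and 0.54 ± 0.09), Irf8 (0.17 ± 0.08 and 0.36 ± 0.08), Spib (0.13 ± 0.08 and 0.88 ± 0.08) and Rela (-0.01 ± 0.08 and 0.49 ± 0.08) passed for CXCL12 and not for IL-7 loss. For IL-7 loss Foxo1 did pass with RLE size factors (adjusted p = 0.038), with no filter on low counts (0.043), with DESeq2 (0.0018) and in the fit of 6 libraries (8.1e-06), and Irf8 with DESeq2 (0.029) and in the fit of 6 libraries (8.6e-04). The call of Irf8 for CXCL12 was lost without either library lacking IL-7 or without replicate 1 with CXCL12 (0.054 to 0.059). Of 8 AP-1 and EGR genes, which respond early to many signals, 1 was higher after IL-7 loss and 4 with CXCL12, among them Fosb (-0.53 ± 0.54 and 2.94 ± 0.57), Jund (-0.53 ± 0.38 and 1.86 ± 0.39) and Egr3 (0.82 ± 0.30 and 1.51 ± 0.29). Ikzf1 (0.54 ± 0.15 and 0.09 ± 0.15) and Fli1 (0.27 ± 0.08 and -0.06 ± 0.08) passed as higher for IL-7 loss and Bcl11a (-0.71 ± 0.13 and -0.33 ± 0.13) as lower, and Lef1 (0.08 ± 0.15 and -0.58 ± 0.15) passed as lower for CXCL12. Without any 1 of the 4 libraries compared, the calls for IL-7 loss of Bcl6 (adjusted p 0.086 to 0.13), Ikzf1 (0.15 to 0.16) and Fli1 (0.17 to 0.24) and the call for CXCL12 of Lef1 (0.053 to 0.087) were lost. The call of Id2 for IL-7 loss was lost without replicate 1 with IL-7 or either library lacking it (0.15 to 0.29), and its call for CXCL12 without replicate 1 lacking IL-7 (0.057). That of Nfkb2 for IL-7 loss was lost without replicate 1 with IL-7 (0.063) or replicate 2 lacking it (0.0502). Whether the 2 changes of a gene differ was not tested, and they share the libraries without IL-7.

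The 4 insulator and cohesin genes, whose proteins shape chromatin loops, fell with CXCL12, and none passed for IL-7 loss. Among them were Rad21 (0.11 ± 0.14 and -1.05 ± 0.14), Smc1a (0.00 ± 0.09 and -0.96 ± 0.09) and Smc3 (-0.19 ± 0.21 and -0.80 ± 0.21), whose call was lost without any 1 library (adjusted p 0.061 to 0.078). Of 33 tested chromatin enzymes, 2 (6.06%) rose and 1 (3.03%) fell with the loss of IL-7, and 3 (9.09%) rose and 9 (27.3%) fell with CXCL12. Over all genes 5.6% rose and 6.23% fell with the loss of IL-7, and 17.3% rose and 13.2% fell with CXCL12. Brwd1, a reader of histone marks in B cell development, rose in both (0.53 ± 0.10 and 1.28 ± 0.10), its call for IL-7 loss being lost without replicate 2 of either medium (adjusted p 0.062 and 0.071). The acetyltransferase gene Kat2a fell in both (-0.70 ± 0.08 and -0.36 ± 0.08), and the remodeller gene Smarca5 (-0.22 ± 0.08 and -0.56 ± 0.08) passed for CXCL12. The call of Kat2a for CXCL12 was lost without replicate 1 lacking IL-7 (0.065) or replicate 2 with CXCL12 (0.060).

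**Figure D5:**
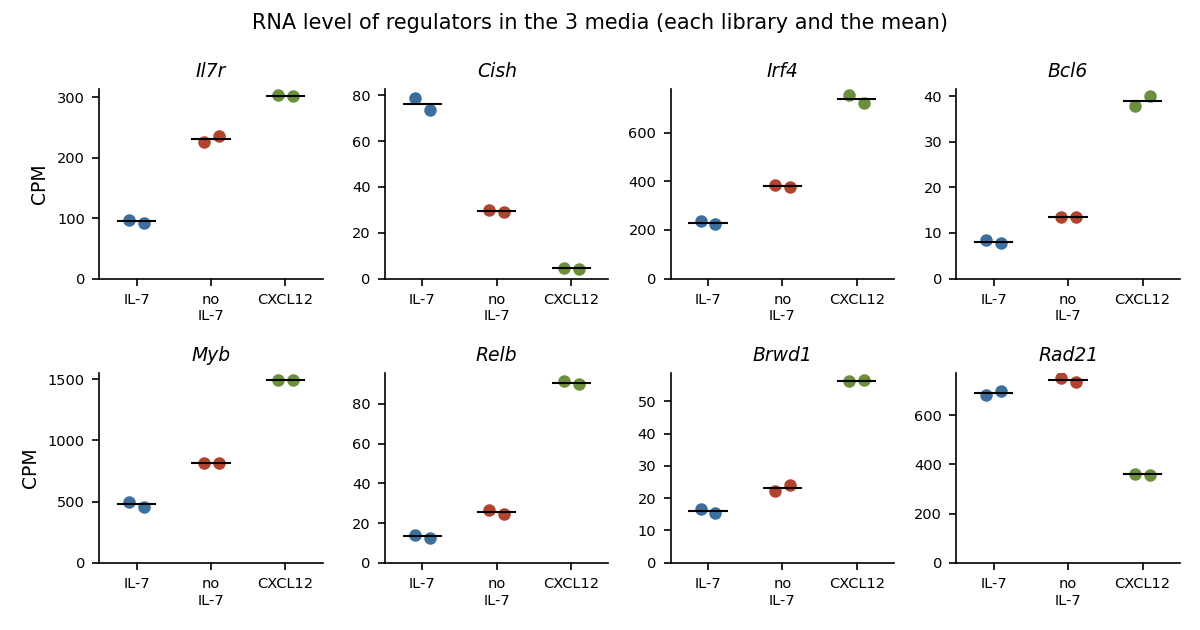
RNA level (y axis, CPM) of 8 named genes in the 2 libraries (points) and their mean (line) in the 3 media: IL-7, no IL-7, and CXCL12 in place of IL-7. Cish falls from 79.0 and 73.6 to 4.79 and 4.29 CPM, Il7r, Irf4, Bcl6, Myb, Relb and Brwd1 are highest with CXCL12, and Rad21 is lowest there.

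Markers of other cells moved with the media in the RNA. The 14 stromal markers summed to 738 and 1205 CPM with IL-7, 1692 and 1669 without it, and 4047 and 3958 with CXCL12, with Lum at 0 in all 6 libraries. Of 13 tested, 2 were called higher and 1 lower for IL-7 loss, and 8 higher and 1 lower for CXCL12. The one called lower was Thy1, at 77.9 and 78.2, 43.1 and 42.7, and 5.08 and 5.89 CPM in the 3 media, and Dcn was at 0.146 to 1.12 CPM. The 15 myeloid markers summed to 181 and 241, 331 and 330.4, and 831 and 834 CPM, and 0 of them were called for IL-7 loss and 4 rose with CXCL12. The 6 mature B markers summed to 248 and 232, 237 and 234, and 319 and 310 CPM. Of them 1 was called higher for IL-7 loss and 2 for CXCL12. Over all genes 5.6% were called higher and 6.23% lower for IL-7 loss, and 17.3% higher and 13.2% lower for CXCL12. T and NK markers summed to at most 1.87 CPM. The part of such cells in the peaks without IL-7 or in the RNA changes was not tested, and in bulk samples fewer cells of a type and less RNA per cell cannot be told apart. Leaving out any 1 of the 4 libraries compared lowered the 1758 genes called for IL-7 loss to between 589 and 851. Without any 1 of its 4 libraries, the 4543 called for CXCL12 fell to between 2257 and 2573.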

How the data were processed

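The members, the gene lists and the comparisons were chosen with earlier results of these data known. The ATAC-seq peaks were deposited as 1 list per library, each peak with a score that the values show to be on a −log10 scale, of p or of q. RNA-seq was deposited as raw read counts per gene symbol. The submitters' processing notes name build mm9 and the tools MACS2, bedtools, BWA, STAR, featureCounts and Picard. The sources used here do not give their versions, their roles, or how read shifting, duplicates, annotation and strand were handled. Per the labels' protocols the RNA was polyadenylated and the libraries stranded. Of the columns of counts, 0 were without a sample. Replicate 2 without IL-7 is titled as small pre-B cells, and the column of replicate 2 without IL-7 with CXCL12 likewise, and both were assigned by media and number.

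Peaks were merged in Python 3.11.15 at 1 bp overlap, checked against bedtools 2.31.1 (35235 regions in both). A region's score is its highest peak's. Intervals are exact Clopper-Pearson at 95% (scipy 1.17.1). Counts were fitted with edgeR 4.0.16 in R 4.3.3: TMM scaling, default filter (14862 genes), 1 mean for each of 9 groups of 2 libraries, robust quasi-likelihood test, Benjamini-Hochberg adjusted p under 0.05. Since the labels do not say that replicates were separate cultures, p-values reflect the spread of these libraries only, possibly technical. On simulated counts for IL-7 loss (14733 genes, 100 changed at each fold) it recovered 49.0% at 2-fold and 80% at 4-fold, with 5.84% of 137 calls false.

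Named regions were the 12 with the highest and 3 with the lowest lower score, the 3 widest, the 3 just outside the rule and groups of 3 within 100 kb. The 3 with the highest sorted scores and the 3 with no missing number were added after their values were seen. Named genes were up to 3 of each list with the smallest p among those called, with Cxcr4 and Il7r. Alternatives are given in the closing section.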

Additional observations from a re-analysis of the deposited data

How the results depend on the processing

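For the 532 regions, a score of at least 10 in every list gave 321 regions, with 80.1% in both sorted lists and a median width of 534 bp. Lists of equal length gave 126 regions and 87.3%. Leaving out 1 cultured library gave 616 to 3392 regions, 61.9% to 82.7% in both sorted lists and 337 to 469 bp. The highest counts were 3392 and 1345, without replicate 2 and without replicate 1 of the medium without IL-7, which leaves 1 list to show a peak. Without replicate 1 with CXCL12 it was 1082 and without replicate 1 with IL-7 it was 945. The width was 422.5 bp with an overlap of 50% of the shorter peak, which measures 1 peak and not the merged region. Of the alternatives chosen after seeing the data, adding chromosomes 10 to 12 gave 69.3% in both sorted lists, and the highest-scoring 80% of every list gave 89.3% and 501.5 bp. There 382 regions were found without IL-7 only, 209 with IL-7 only and 24 with CXCL12 only, the order of the deposited lists. Merging peaks up to 500 bp apart and adding chromosome X kept the count between 480.0 and 545. Where the value moved, the cause was not tested.

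Genes called for IL-7 loss numbered 2653 with DESeq2 1.42.0 and 7752 in a fit of the 6 libraries of the 3 media, where the spread is estimated from those libraries alone, against 1758. Those for CXCL12 numbered 9994 in the latter, against 4543. Without 1 library they numbered 589 to 851 and 2257 to 2573. With the replicate number as a block they were 1650 and 4410. The numbers do not pair the samples in the labels, and replicate 1 deviations correlated between media at -0.01, -0.01 and 0.11 over genes. Of 486 values of the 27 named genes under these alternatives, 0 turned in direction past the threshold, 41 lost their call and 20 gained one. Each loss but that of Fli1 with the block (adjusted p = 0.062) came with 1 library left out. The report names the lost calls beside their genes. Of the 20 gained calls 15 were for IL-7 loss, in Foxo1, Irf8, Spib, Jund, Egr3, Cxcr4, Rad21, Smc3 and Smarca5, and 5 for CXCL12, in Bcl11a, Fli1 and Cxcr4, most of them in the fit of 6 libraries.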

Other observations

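Outside the chromosomes of the rule, the same pattern of peaks was found at 88 of 7660 merged regions of chromosome 10, 48 of 3566 of chromosome 11, 39 of 2115 of chromosome 12 and 13 of 1425 of chromosome X. A peak in both sorted lists was present at 30 of the 88 on chromosome 10 (34.1%, exact 95% binomial interval 24.3% to 45.0%). It was present at 27 of 48 on chromosome 11 (56.25%, 41.2% to 70.5%) and 26 of 39 on chromosome 12 (66.7%, 49.8% to 80.9%). On the chromosomes kept the share was 76.5%, and none of them had a value under 59.4%. Chromosome 10 held 4860 to 5753 peaks in each cultured list, more than in either sorted list (4841 and 4428), although the sorted lists were longer in all.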
